A study of Mus musculus with 10 samples.

Results

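Metallothioneins and genes that handle zinc were followed in C2C12 cells, an immortalized mouse myoblast line that fuses into myotubes in low-serum medium. The group held 6 genes of the 23460 listed in any of the 4 deposited expression tables: the metallothioneins Mt1 and Mt2, the transcription factor Mtf1, the zinc exporter Slc30a1 (ZnT1) and the zinc importers Slc39a10 (ZIP10) and Slc39a14 (ZIP14). The genes were chosen by symbol from the FPKM values of these same tables, so their levels and ratios are a description and carry no test. FPKM counts sequenced fragments scaled to transcript length and to the size of the library, a level that can be compared between genes per length.

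RNA was sequenced from 10 samples. At day 0, as myoblasts, and at day 6 of differentiation, 1 wildtype sample stood against 2 samples with a knockdown of Huwe1, a ubiquitin ligase, made with 2 hairpin RNAs that the labels give as the same on both days. At day 8, myotubes with a non-targeting RNA, named as wild type in the table's header, gave 1 sample, and myotubes with Huwe1 knockdown gave 2, infected after differentiation had begun. The labels give the day 8 hairpins sequences other than those of days 0 and 6, whereas the study's methods give only the day 8 pair, for myoblasts and myotubes alike. A stable line that carried USP10 cDNA, a deubiquitinase, under the EF1a promoter gave 1 sample at day 6 and was listed beside a day 6 wildtype control. Hairpin-carrying cells were selected with puromycin, and the controls of days 0 and 6 are labelled only as wildtype. All samples came from the same cell line, so they are cultures of 1 line and not separate animals.

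Each table held 1 FPKM value for control and 1 for treated cells, with both knockdown samples pooled by the authors, so no spread between replicates and no p-value could be given for any value below. A ratio is log2 of treated over control with 0.01 FPKM added to each, for genes that reached 1 FPKM in either column, and genes were counted as higher or lower at 2-fold. The steps that 1 fragment makes in the FPKM values gave about 22200000, 30200000 and 18200000 fragments for the day 0, day 6 and day 8 controls, 27900000 for the USP10 line and 7820000 for the control listed with it. The header named that control as the day 6 wildtype sample too, yet 0 genes had an identical value above 0 in both day 6 controls. Huwe1 itself went from 38.3 to 15.2 FPKM at day 0, from 35.1 to 21.9 at day 6 and from 55.4 to 33.0 at day 8 in the knockdown, and Usp10 from 10.3 to 38.3 FPKM in the USP10 line. Usp10 was also higher in the day 6 Huwe1 knockdown, at 13.2 FPKM in control and 35.4 FPKM in knockdown cells. In the knockdown it was 1.07-fold lower at day 0 and 1.10-fold lower at day 8.

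Metallothioneins are small cysteine-rich proteins that hold zinc and copper in the cytosol and also bind cadmium. Free zinc is sensed by MTF-1, the product of Mtf1, a zinc finger factor that binds metal response elements in the promoters of Mt1, Mt2 and Slc30a1 and raises their transcription, whereas it holds Slc39a10 transcription back. ZnT proteins move zinc out of the cytosol and ZIP proteins move it in. Metallothionein transcripts are known to be raised in wasting muscle, and their genes also respond to glucocorticoids, cytokines and oxidants.

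The promoters are shown because Mt1, Mt2 and Slc30a1 are the classical targets of MTF-1. Each window runs from 250 bases before to 50 bases after the annotated start, 5′ to 3′ on the strand of the gene, from RefSeq on GRCm38.p6. Capitals mark the core of the metal response element, TGCACNC or TGCGCNC, read on either strand, and no marked cores overlapped. The Mt1 window lay at chr8:94178839-94179138 on the plus strand, the Mt2 window at chr8:94172368-94172667 on the plus strand and the Slc30a1 window at chr1:191906531-191906830 on the plus strand.
Mt1: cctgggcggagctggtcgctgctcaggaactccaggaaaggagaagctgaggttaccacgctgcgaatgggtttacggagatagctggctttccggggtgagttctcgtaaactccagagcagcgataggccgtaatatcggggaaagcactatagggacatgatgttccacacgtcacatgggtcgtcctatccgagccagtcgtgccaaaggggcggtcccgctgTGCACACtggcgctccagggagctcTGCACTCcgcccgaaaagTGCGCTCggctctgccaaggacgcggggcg
Mt2: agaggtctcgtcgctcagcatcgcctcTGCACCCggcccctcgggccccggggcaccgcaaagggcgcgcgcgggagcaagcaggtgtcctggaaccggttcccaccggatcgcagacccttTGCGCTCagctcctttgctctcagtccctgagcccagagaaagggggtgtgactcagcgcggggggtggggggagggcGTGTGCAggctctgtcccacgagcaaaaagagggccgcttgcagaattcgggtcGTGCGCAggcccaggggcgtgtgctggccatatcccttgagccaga
Slc30a1: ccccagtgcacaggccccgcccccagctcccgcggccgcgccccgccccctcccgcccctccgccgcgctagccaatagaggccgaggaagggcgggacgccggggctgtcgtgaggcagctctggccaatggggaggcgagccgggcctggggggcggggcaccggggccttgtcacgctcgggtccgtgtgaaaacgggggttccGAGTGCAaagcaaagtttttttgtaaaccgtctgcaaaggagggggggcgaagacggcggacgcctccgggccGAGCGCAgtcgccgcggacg

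The Mt1 window held 3 cores, whose first bases lay at −23, 2 and 20 from the annotated start, and 1.97% of the 32851 promoter windows of the same length held as many. The Mt2 window held 4 cores, at −223, −128, −50 and 4, a number reached by 0.517% of windows. The Slc30a1 window held 2 cores, at −43 and 30, both on the other strand, and 7.11% of windows held as many. At least 1 core stood in 25.7% of all windows, so a single match is common. No core stood in the window of Mtf1 or in either of the 2 windows listed for Slc39a10. Slc39a14 was named only. Each window was set on 1 annotated start. RefSeq begins the Mt1 locus at 94178883 and the Slc30a1 locus at 191906697, upstream of the starts used here. Cores outside these windows were not counted, so the counts are not those of a whole promoter. A match is a stretch of letters, and no binding was measured here.

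**Figure D1:**
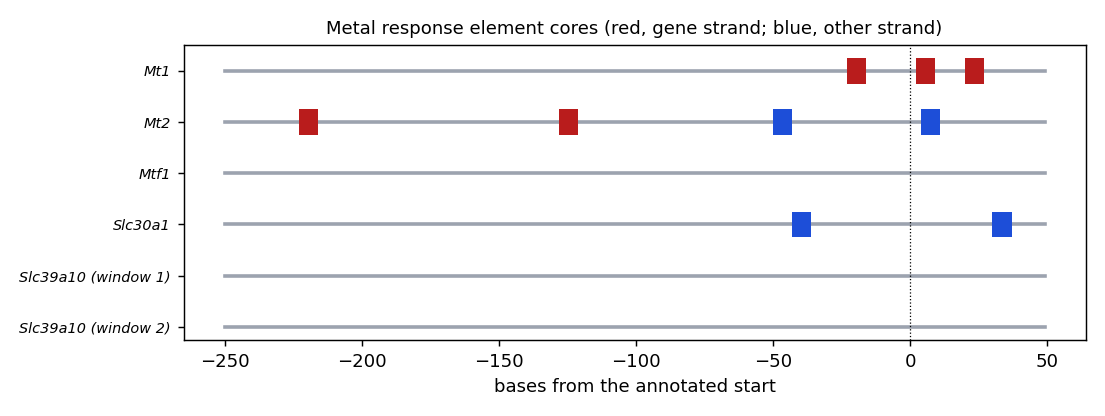
Position of metal response element cores in RefSeq promoter windows. The x axis is the distance in bases from the annotated start, each row is 1 promoter window of a gene, and blocks stand for cores on either strand; Mt2 holds 4, Mt1 3 and Slc30a1 2, and the rows of Mtf1 and Slc39a10 are empty.

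Mt1 and Mt2 were the members with the widest range. Mt1 lay between 30.8 and 179 FPKM in the 4 control columns, a 5.80-fold range, and Mt2 between 7.72 and 116 FPKM, a 15-fold range. Over all 8 columns the highest value exceeded the lowest 25.5-fold for Mt1 and 179-fold for Mt2, compared with 2.01-fold for Mtf1, 3.80-fold for Slc30a1, 5.90-fold for Slc39a10 and 2.02-fold for Slc39a14. The tables were normalized separately, so levels set across them are only approximate.

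**Figure D2:**
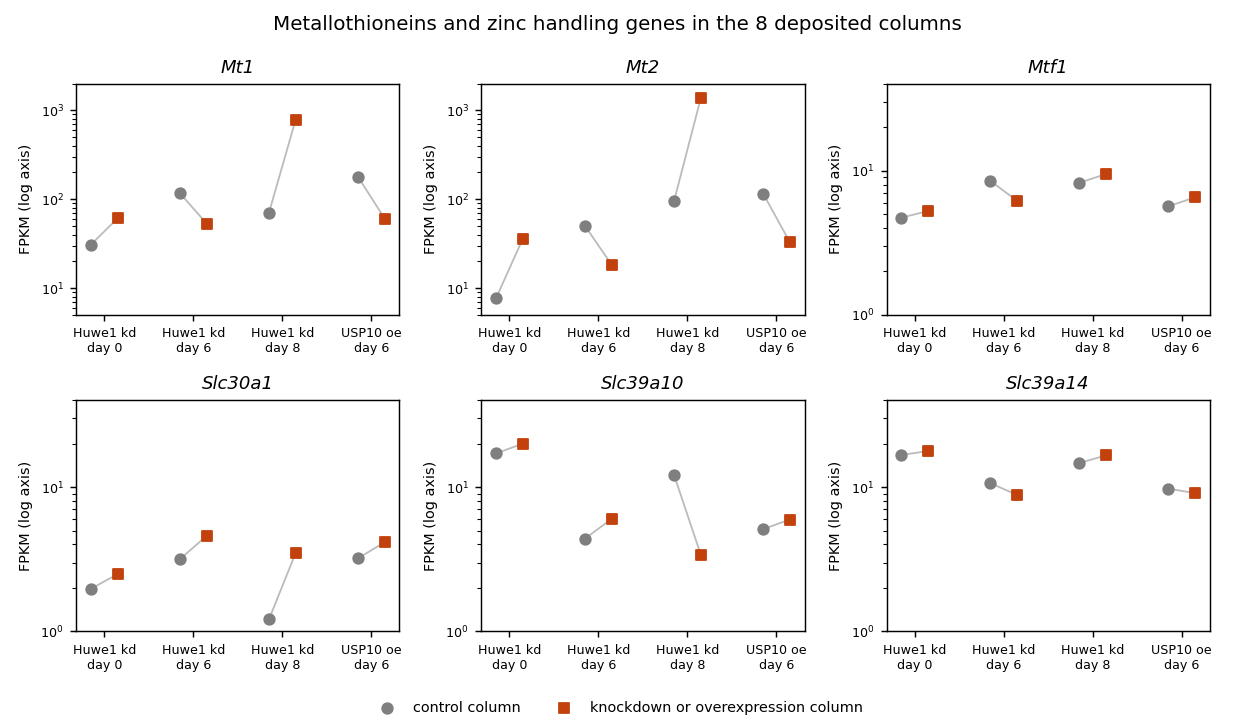
FPKM of the 6 members in the 8 deposited columns, on a log axis, with control and treated cells of each table side by side. Each point is 1 deposited value and has no error bar; Mt1 and Mt2 reach 786 and 1379 FPKM in the day 8 knockdown myotubes, and the other members keep to narrower ranges.

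In day 0 myoblasts the metallothioneins were higher with Huwe1 knockdown. Mt2 stood at 7.72 FPKM in control and 35.8 FPKM in knockdown cells, which is 4.64-fold higher and a log2 ratio of 2.21. Mt1 stood at 30.8 FPKM in control and 61.1 FPKM in knockdown cells, 1.98-fold higher, just short of the 2-fold mark. The ratio of Mt2 exceeded that of 99.4% of the 10874 genes compared and ranked 64 from the top, and that of Mt1 exceeded 98.1%. Mt2 was thus the 1 member of 6 counted as higher, where 1.90% of all genes were, and 0 of 6 members were lower, where 1.69% of all genes were. The control value of Mt2 rested on at most 88 fragments, so its ratio is less precise than that of Mt1, which rested on at most 742. Muscle markers summed to 390 FPKM in control and 202 FPKM in knockdown myoblasts, mostly Des at 345 and 173 FPKM. Of the 6 that passed the minimum, 5 were lower and Acta1 was higher, at 3.93 and 6.28 FPKM. The part of these markers in the result was not tested.

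At day 6 of differentiation the direction was the opposite. Mt1 stood at 117 FPKM in control and 53.1 FPKM in knockdown cells, 2.2-fold lower. Mt2 stood at 49.8 FPKM in control and 18.2 FPKM in knockdown cells, 2.73-fold lower. They were the 2 members counted as lower, where 13.4% of the 11695 genes compared were, and 0 of 6 members were higher, where 17.6% of all genes were. Centred on 15 housekeeping genes, the split over all genes turned from 2061 higher and 1571 lower to 1634 higher and 2296 lower. That list was itself not steady here, with 3 of the 15 at least 2-fold higher, led by B2m at a log2 ratio of 3.19. The log2 ratios of Mt1 and Mt2, −1.14 and −1.45, exceeded those of only 11.4% and 8.66% of genes. Much of the transcriptome differed at this step, so the metallothioneins sat in the lower tail but not at its end. Most muscle markers moved with them: the 9 listed markers summed to 14166 FPKM in control and 2905 FPKM in knockdown cells, with 7 of 9 at least 2-fold lower and 0 at 0 FPKM in either column. Myf5 went the other way, at 3.51 FPKM in control and 18.5 FPKM in knockdown cells. Fibroblast markers were higher, from a sum of 128 to 4547 FPKM, with all 8 that passed the minimum at least 2-fold higher, led by Dcn at 7.94 and 2987 FPKM. Of the 10 fibroblast markers, 1 was listed at 0 in each column. The part of these shifts in the metallothionein result was not tested, and in bulk RNA fewer cells of a type and less RNA per cell cannot be told apart.

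USP10 overexpression at day 6 gave the same direction. Mt1 was at 179 FPKM in control and 60.6 FPKM in USP10 cells, 2.95-fold lower. Mt2 was at 116 FPKM in control and 32.9 FPKM in USP10 cells, 3.51-fold lower. They were again the 2 members counted as lower, where 10.0% of the 11482 genes compared were, and 0 of 6 members were higher, where 9.70% of all genes were. With the same centring the split of 1114 higher and 1153 lower became 856 higher and 1420 lower, though 2 of the 15 housekeeping genes, Tbp and B2m, were themselves at least 2-fold higher. The log2 ratios were −1.56 for Mt1 and −1.81 for Mt2, exceeding those of 6.40% and 5.08% of genes. Muscle markers summed to 6904 FPKM in control and 3328 FPKM in USP10 cells, and fibroblast markers to 522 and 4142 FPKM. Of the 9 muscle markers, 5 were at least 2-fold lower, while Myf5 was higher, at 4.79 and 20.2 FPKM. In USP10 cells the fibroblast sum was mostly Dcn, at 3037 FPKM beside 50.3 FPKM in control. Of the 8 fibroblast markers that passed, all were above control and 4 were at least 2-fold higher. Here too the part of those markers in the result was not tested.

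Both day 6 tables name the same wildtype sample as control, so their ratios cannot be taken as independent. The control columns themselves differed, and whether they came from the same library is not settled here. The control listed with USP10 was 1.53-fold higher in Mt1 and 2.32-fold higher in Mt2 than the control listed with the knockdown, and 19.9% of 11459 genes were at least 2-fold apart between these controls after centring. Mtf1 was 1.5-fold apart, and Slc30a1, Slc39a10 and Slc39a14 were 1.01-, 1.16- and 1.09-fold apart. The lowest control value exceeded the highest treated value 1.93-fold for Mt1, 1.51-fold for Mt2 and 1.07-fold for Slc39a14. Both treated columns were thus below both controls for these 3 of 6 members, where 26.6% of 11159 genes were, and above both controls for 2 of 6, Slc30a1 and Slc39a10, where 29.8% of genes were. Columns that did not overlap were therefore common at this step.

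In day 8 myotubes the metallothioneins were far higher with Huwe1 knockdown. Mt1 stood at 70.5 FPKM in control and 786 FPKM in knockdown cells, 11.2-fold higher. Mt2 stood at 96.2 FPKM in control and 1379 FPKM in knockdown cells, 14.3-fold higher. By level, Mt2 moved from position 926 of all genes in the control column to position 27 in the knockdown column, and Mt1 from position 1296 to position 62. Their log2 ratios of 3.48 and 3.84 ranked 102 and 89 from the top of 11755 genes. Mt1, Mt2 and Slc30a1 made 3 of 6 members higher, where 7.89% of all genes were, and Slc39a10 made 1 of 6 lower, where 10.0% of all genes were. Housekeeping centring moved the split over all genes from 928 higher and 1180 lower to 1863 higher and 809 lower. Muscle markers were lower here too, with a sum of 12027 FPKM in control and 3165 FPKM in knockdown cells and 7 of 9 at least 2-fold lower, while fibroblast markers went both ways. Of the 7 fibroblast markers that passed, 3 were above and 4 below control, with a median log2 ratio of −0.08, from Pdgfra at 1.98 to Dpt at −3.27. Their sum of 547 FPKM in control and 806 FPKM in knockdown cells was mostly Col3a1, at 411 and 710 FPKM. The muscle sum was lower with knockdown on all 3 days, and the metallothioneins were lower on day 6 and higher on days 0 and 8. The part of the muscle and fibroblast markers in the metallothionein result was not tested. Macrophage markers had sums of 1.12 and 2.53 FPKM at day 8, with 1 of the 5 listed at 0 in each column. These sums were mostly Cd68, at 0.946 FPKM in control and 2.34 FPKM in knockdown cells.

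The balance of both metallothioneins also differed between columns. Mt2 stood at 0.251 of the FPKM of Mt1 in the day 0 control and at 0.586 in the knockdown. That day 0 control value of Mt2 rested on at most 88 fragments. At day 6 the ratio of Mt2 to Mt1 was 0.425 in the control and 0.343 in the knockdown, and beside USP10 it was 0.646 and 0.543. The day 6 controls, which carry the same sample name, thus lay farther from each other than either lay from its treated column. At day 8 Mt2 was the higher gene in both columns, at 1.36 and 1.75 times the level of Mt1. Summed, Mt1 and Mt2 were 2.52-fold higher at day 0, 2.34-fold lower at day 6, 13.0-fold higher at day 8 and 3.15-fold lower with USP10. The longest stretch shared by the Mt1 and Mt2 transcripts in the annotation was 20 bases.

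**Figure D3:**
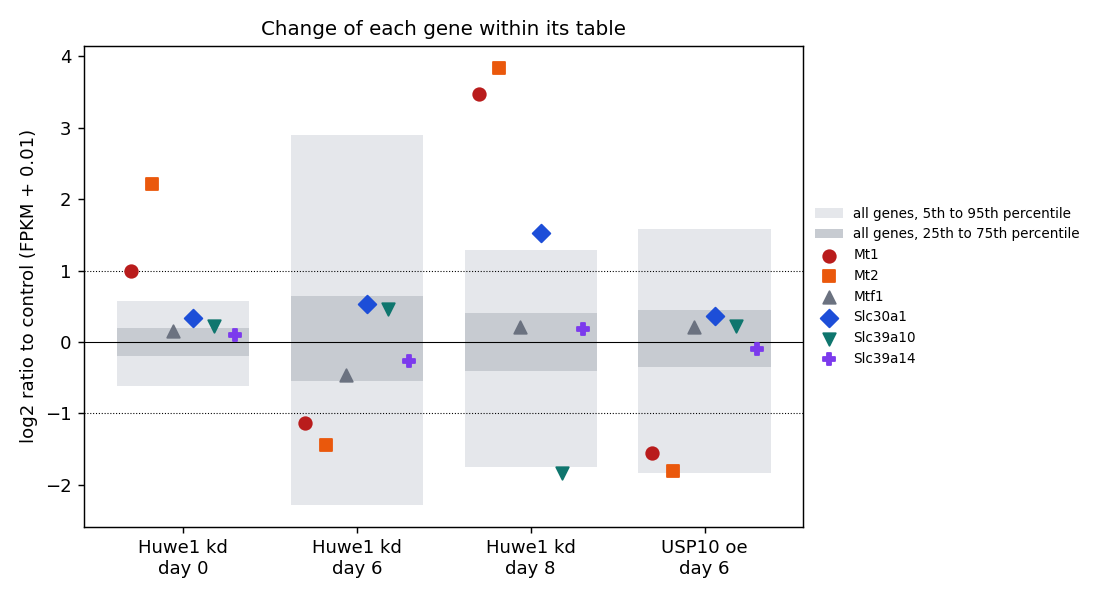
Log2 ratio of treated over control FPKM for the 6 members in the 4 tables, with dotted lines at the 2-fold marks and grey boxes for the spread over all genes compared, the dark box holding the middle 50% and the light box the middle 90% of genes. Each mark is 1 ratio with no error; Mt1 and Mt2 lie above 0 at days 0 and 8 and below 0 in both day 6 tables, and Slc39a10 lies below the lower 2-fold mark at day 8 alone.

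Mtf1, which encodes the zinc-sensing activator, stayed within 1.37-fold of its control in all 4 tables. It was at 4.71 FPKM in control and 5.23 FPKM in knockdown cells at day 0, 8.48 and 6.17 FPKM at day 6, and 8.22 and 9.46 FPKM at day 8. In the USP10 table it was at 5.65 FPKM in control and 6.51 FPKM in USP10 cells. MTF-1 is known to be set by zinc binding and its place in the cell, which its transcript level does not measure.

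Slc30a1, which encodes the exporter at the cell surface and carries metal response elements, was the least abundant member in most columns. It was at 1.97 FPKM in control and 2.50 FPKM in knockdown cells at day 0, and at 3.17 and 4.59 FPKM at day 6. At day 8 it was at 1.21 FPKM in control and 3.50 FPKM in knockdown cells, 2.87-fold higher, a log2 ratio of 1.52 that exceeded 96.3% of genes. In the USP10 table it was at 3.21 FPKM in control and 4.15 FPKM in USP10 cells, 1.29-fold higher. Slc30a1 sat above its control in all 4 tables, including both day 6 tables in which Mt1 and Mt2 were lower. Its ratio exceeded those of 87.9% of genes at day 0, but only 72% at day 6 and 70.7% with USP10. The share of all genes above control in all 4 tables was not computed. The day 8 control value rested on at most 116 fragments, and the control value listed with USP10 on at most 132. The listed locus also spans an antisense gene, 1700034H15Rik, at 0.141 to 0.533 FPKM, and whether counting used strand is not given in the sources used here.

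Slc39a10, which encodes an importer at the cell surface, was lower at day 8. It was at 12.1 FPKM in control and 3.39 FPKM in knockdown cells, 3.56-fold lower, with a log2 ratio of −1.83 that exceeded only 4.70% of genes. At day 0 it was at 17.1 FPKM in control and 20.0 FPKM in knockdown cells, and at day 6 at 4.40 and 6.04 FPKM. The USP10 table gave 5.11 FPKM in control and 5.96 FPKM in USP10 cells. Among the 3 wildtype or control samples of the knockdown tables, the day 6 value was the lowest and the day 0 value the highest. At day 8 the exporter and both metallothioneins were thus above control and this importer below it.

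Slc39a14, an importer of zinc that also carries iron and manganese, was close to its control throughout. It was at 16.7 FPKM in control and 17.8 FPKM in knockdown cells at day 0, 10.7 and 8.82 FPKM at day 6, and 14.7 and 16.6 FPKM at day 8. In the USP10 table it was at 9.75 FPKM in control and 9.08 FPKM in USP10 cells. All 4 of its log2 ratios lay between −0.27 and 0.18.

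All 6 members passed the minimum in all 4 tables, and none of their values was 0. The median log2 ratio of the members was 0.28 at day 0, −0.37 at day 6, 0.86 at day 8 and 0.05 with USP10, beside medians over all genes of 0.0023, −0.0065, 0.00087 and 0.05. The ratios just inside and just outside the 2-fold mark were 4.64-fold for Mt2 and 1.98-fold for Mt1 at day 0, and 2.2-fold for Mt1 and 1.45-fold for Slc30a1 at day 6. At day 8 they were 2.87-fold for Slc30a1 and 1.15-fold for Mtf1, and with USP10 2.95-fold for Mt1 and 1.29-fold for Slc30a1.

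The other genes of the families were read from fixed lists. The other metallothioneins, Mt3 and Mt4, did not reach 1 FPKM in any column: both were listed at 0, with the exception of 0.625 FPKM of Mt4 in the control of the USP10 table. Of the 9 other ZnT genes, 5 passed the minimum in each table, and the median log2 ratio was 0.0013 at day 0, −0.27 at day 6, −0.03 at day 8 and −0.10 with USP10. Slc30a7, a transporter of the secretory pathway, was the 1 of these genes past 2-fold in any table, at 2.26 FPKM in control and 5.29 FPKM in day 6 knockdown cells. At day 8 none of the 5 passed 2-fold, in contrast to Slc30a1.

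Of the 12 other ZIP genes, 8 passed the minimum in each table. At day 0 none of them passed 2-fold, and 4 were above and 4 below control. At day 6 Slc39a6, which encodes ZIP6, was at 16.9 FPKM in control and 52.4 FPKM in knockdown cells, and Slc39a8, which encodes ZIP8, at 0.727 and 1.70 FPKM. In the USP10 table Slc39a6 was at 26.7 and 63.8 FPKM and Slc39a3 at 5.53 and 12.2 FPKM. At day 8 all 8 stood above control with a median log2 ratio of 0.51, and Slc39a8 passed 2-fold, at 0.826 FPKM in control and 2.98 FPKM in knockdown cells. Slc39a10 was thus the 1 ZIP gene counted as lower in the day 8 table, and the one closest to it in family, Slc39a6, was higher at day 6.

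**Figure D4:**
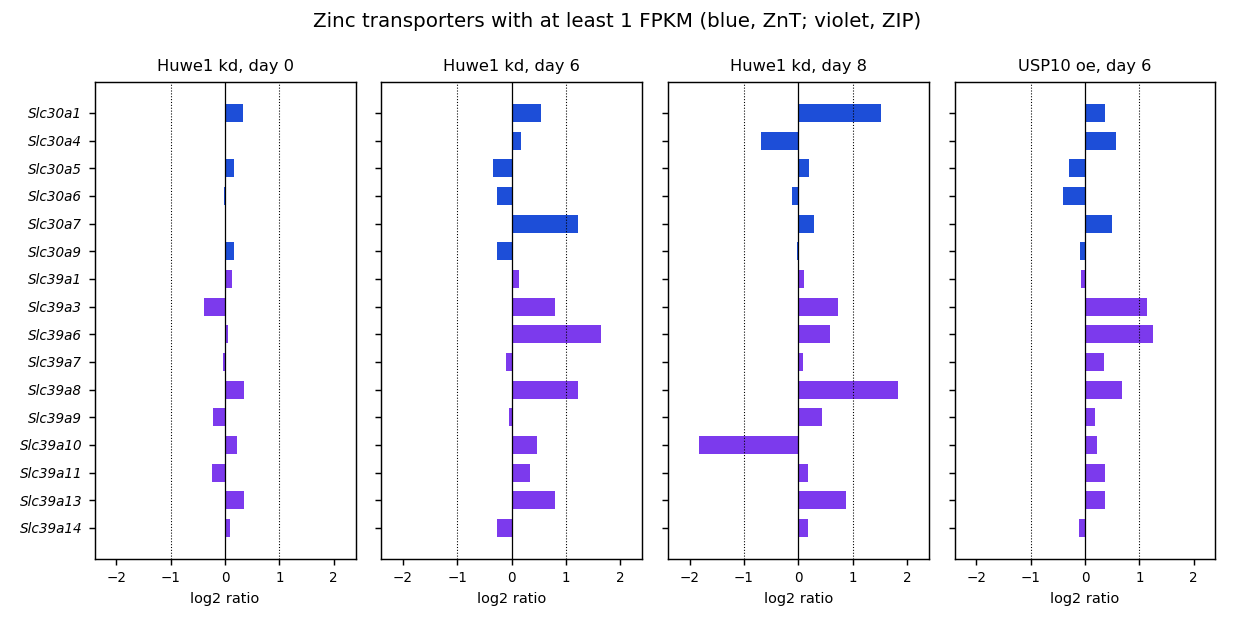
Log2 ratio of treated over control FPKM for the ZnT and ZIP genes with at least 1 FPKM, 1 panel per table, with dotted lines at the 2-fold marks. Each bar is 1 gene with no error, blue for ZnT and violet for ZIP; at day 8 Slc39a8 at 1.84 and Slc30a1 at 1.52 reach farthest to the right and Slc39a10 at −1.83 farthest to the left.

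Mt1 and Mt2 are neighbours on mouse chromosome 8. In mm10 coordinates the listed Mt2 locus ran from 94172618 to 94173567 and the Mt1 locus from 94179089 to 94180327, with 5521 bases between them. Of 8 other genes analysed within 200 kb, 4 passed the minimum: Nudt21, Ogfod1, Bbs2 and Nup93. At day 0 their median log2 ratio was 0.12, and at day 8 it was −0.44 with none past 2-fold, the highest being Bbs2 at 0.87 and the lowest Nudt21 at −0.49. At day 6 the median was −1.76 and 3 of the 4 were at least 2-fold lower, where 13.4% of all genes were. The lowest was Nup93 at −2.44, with Bbs2 at −0.57. With USP10 the median was −1.18, and 3 of the 4 were again at least 2-fold lower, where 10.0% of all genes were. These 4 neighbours were therefore lower in both day 6 tables, as Mt1 and Mt2 were, while at days 0 and 8 the neighbours stayed within 2-fold of control. Both day 6 tables name the same control, so the second cannot be taken as an independent repeat. A link between the neighbours and the metallothioneins was not tested.

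**Figure D5:**
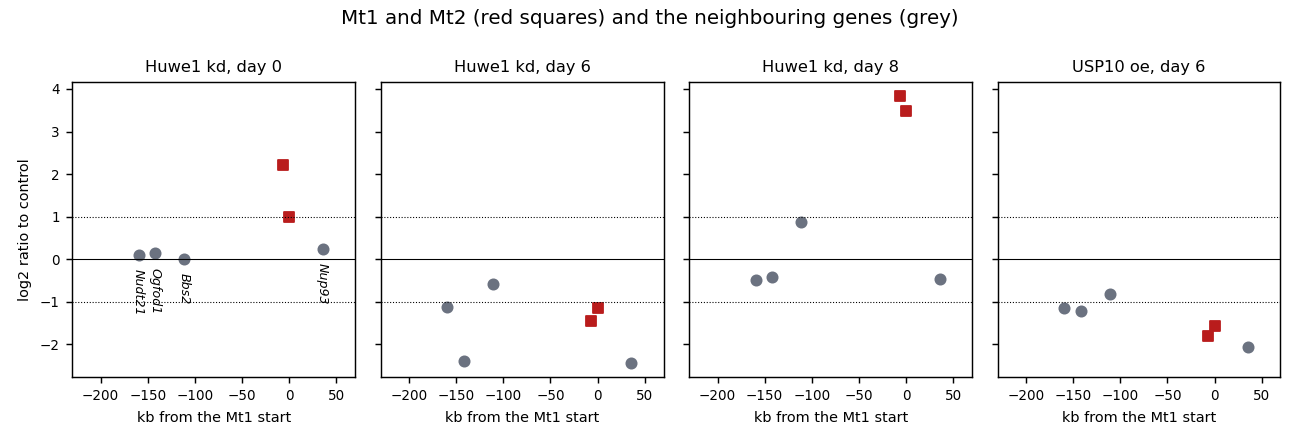
Log2 ratio of treated over control FPKM for the genes analysed within 200 kb of Mt1 and Mt2, plotted against the distance in kb of the listed start from the start of Mt1, 1 panel per table, with dotted lines at the 2-fold marks. Red squares are Mt1 and Mt2 and grey points the neighbours. Each mark is 1 gene with no error; at day 8 Mt1 and Mt2 stand at 3.48 and 3.84 while the highest neighbour is at 0.87.

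The genes whose 4 ratios were most like the mean of Mt1 and Mt2 were found by Euclidean distance among 7765 genes. The mean ratios were 1.60 at day 0, −1.29 at day 6, 3.66 at day 8 and −1.69 with USP10. Atoh8, a transcription factor, was the nearest other gene at a distance of 1.93, with log2 ratios of 0.62, −2.17, 2.27 and −1.42. Osmr, the oncostatin M receptor, followed at 2.12, with 0.54, −0.35, 2.17 and −1.18. Nrbp2 lay at 2.36, Apoe, a lipid carrier, at 2.39 and Sh3rf3 at 2.43. Nrbp2 had a log2 ratio of −0.10 at day 0 and Sh3rf3 one of 0.74 at day 6, so neither followed Mt1 and Mt2 in every direction. Mt1 and Mt2 lie near their own mean by construction, so these distances only rank the other genes, and both day 6 ratios share a named control.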

How the data were processed

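The authors mapped reads with Tophat by the study's methods, where the submitters' processing notes name Bowtie2 and mm10, and made the deposited FPKM values with Cuffdiff. Tool versions and the strand setting are not given in the sources used here. Each of the 4 deposited tables gives 1 FPKM value for control and 1 for treated cells per gene, with both knockdown samples pooled, and the tables were normalized separately. The authors' columns of fold change, test statistic, p-value and q-value hold their own comparisons and were not used. From the FPKM values, log2 ratios with a pseudocount of 0.01 were computed for genes that reached 1 FPKM in either column, in Python 3.11.15 with numpy 2.4.6, pandas 2.3.3 and matplotlib 3.10.9. With 1 value per condition no test was possible, and 2-fold counts were read against those over all genes. The calculation was tested on simulated data.

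Depth was estimated from the FPKM step of 1 fragment in genes with 1 transcript of at least 1500 bases, and gives no estimate for pooled columns. Fragment limits use the longest annotated transcript and, like depth, cover counting error only.

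The members and all gene lists were chosen with earlier results of these data known. Text names the 6 members, family genes past 2-fold, the highest and lowest genes of other lists, genes within 200 kb of Mt1 or Mt2, the 5 genes most like them that reached 10 FPKM in 1 of 8 columns, and Huwe1 and Usp10. Up to 2 genes at each end of the other lists were allowed by that rule, and mostly 1 was printed. Some genes that made up most of a marker sum were named as well. Mymk was not analysed here. One gene that the rule would name is not reported here. Protein sequences of the metallothioneins were not used here. Alternatives varied the pseudocount, the minimum, the centring, the summing of Mt1 with Mt2, chosen after seeing the data, and the motif.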

Additional observations from a re-analysis of the deposited data

Results flagged for a closer look

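Direction differed between days of the Huwe1 knockdown for 5 of the 6 members, Slc30a1 being the exception, and none of these differences was tested, since each is a difference of single ratios from separately normalized tables. The share of all genes whose direction differed between days was not computed, so the count is not a result about the members. For Mt1 the log2 ratio of day 6 minus that of day 0 was −2.13, and that of day 8 minus day 6 was 4.62. For Mt2 the same differences were −3.66 and 5.29. For Slc39a10 the ratio of day 8 minus that of day 6 was −2.29, and that of day 8 minus day 0 was −2.06. Mtf1 and Slc39a14, which stayed within 2-fold of control on each day, had smaller differences, of −0.61 and 0.66 for Mtf1 and −0.37 and 0.45 for Slc39a14, in each case day 6 minus day 0 and then day 8 minus day 6. Day 8 differed from days 0 and 6 in the time of infection, in its control and, by the labels but not by the study's methods, in hairpin sequences, which cannot be told apart from the day.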

How the results depend on the processing

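Of 196 recomputed member ratios, 195 moved by less than the robust SD of 0.634 between both day 6 controls and none reversed. The exception was Mt2 at day 0, whose log2 ratio was 1.33 when Mt1 and Mt2 were summed. Settings that changed only the minimum, or kept only completed tests, choose genes and could not move a ratio. The values recomputed under them were therefore the same by construction. Centring on the housekeeping list, whose median log2 ratios were −0.09, 0.29, −0.37 and 0.20 at days 0, 6, 8 and with USP10, took Mt1 past 2-fold at day 0, making 2 members. Counts over all genes at 2-fold depended on the minimum. With a pseudocount of 1, day 0 gave 124 higher and 88 lower and day 8 545 higher. With a minimum of 5 FPKM, higher and lower counts were 117 and 90 at day 0, 502 and 771 at day 8, 740 and 658 with USP10, and 1357 higher at day 6. With no minimum they were 1710 and 953, 3937 and 3141 at day 6, 2408 and 3640 at day 8, and 2983 and 2880 with USP10. With 1 FPKM required in both columns they were 91 and 106, 1284 higher at day 6, 544 and 783 at day 8, and 741 and 669 with USP10. Housekeeping centring gave 1863 higher at day 8, and it moved the split between higher and lower at days 6 and 8 and with USP10. With TGCGCNC alone, Mt1 kept 1 core, Mt2 2 and Slc30a1 1. Members under 5 FPKM in both columns have no value at that minimum. No paired analysis was possible because each table pools the knockdown samples, and leaving out replicates was not run for the same reason.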

Other observations

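Other metal, stress and signalling genes were read at the same steps, with the lists' medians beside medians near 0 over all genes. At day 8, all 8 of the IL-6 and STAT3 targets that passed the minimum stood above control, with a median log2 ratio of 1.37. Cebpd was at 2.88 FPKM in control and 13.5 FPKM in knockdown cells, Osmr at 12.6 and 56.8 FPKM, Socs3, an inhibitor of cytokine signalling, at 9.89 and 44.1 FPKM, and Bcl3 had a log2 ratio of 1.92. The same list had medians of −0.00075 at day 0, −0.68 at day 6 and −0.53 with USP10, where Bcl3 was the lowest at −2.74 and −4.47. Heat shock genes had a median of 1.08 at day 8, with Hspa1b at 1.85, Hsph1 and Dnajb1 past 2-fold, and of 0.36, −0.76 and −0.19 at day 0, day 6 and with USP10. At day 6 Hspa1a had the lowest ratio, −3.46. Near-identical Hspa1a and Hspa1b can share reads, so their split is uncertain.

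NRF2 targets, which answer to oxidants, had medians of 0.00075, 0.46, 0.27 and 0.79 at days 0, 6, 8 and with USP10. At day 8 Srxn1 was at 4.53 FPKM in control and 22.3 FPKM in knockdown cells, and Hmox1, which breaks down heme, at 25.4 and 93.4 FPKM. With USP10 all 10 stood above control and 5 passed 2-fold, where 9.70% of all genes were at least 2-fold higher. The cystine transporter Slc7a11 led them at 2.43. A link between any list in this section and the metallothioneins was not tested. Glucocorticoid targets had medians of −0.20, 0.34, −0.34 and 0.34. At day 8 Fkbp5, Tsc22d3 and Ddit4 were at least 2-fold lower, where 10.0% of all genes were, Fkbp5 with a log2 ratio of −1.48. Of the 7 that passed at day 8, 4 were below control and 3 above, led by Klf9 at 0.90. Among 12 copper and iron genes that passed, the transferrin receptor gene Tfrc was the lowest at day 8, at 74.0 FPKM in control and 20.8 FPKM in knockdown cells, and the iron exporter gene Slc40a1 the highest, at a log2 ratio of 1.41. Adipocyte markers had summed levels between 3.28 and 16.0 FPKM over the 8 columns. The highest was Fabp4 at day 0, day 6 and with USP10, with log2 ratios of 2.17, 3.71 and 2.82. At day 8 only Pparg passed the minimum, at −0.41.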
